A study of Homo sapiens with 8 samples.

Results

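SNX5 and 9 further genes of endosomal retrieval were followed in 4 human prostate cancer cell lines after depletion of DNA-PK. The genes are the sorting nexins SNX1, SNX2, SNX5 and SNX6, the adaptor nexins SNX3 and SNX27, and the retromer genes VPS26A, VPS26B, VPS29 and VPS35. They make up 10 of the 22395 genes with a probe set of their own on the array, and all 10 lay among the 16796 genes above the expression filter. The set was chosen by the response of SNX5 to the DNAPK siRNA in these same arrays, so the knockdown values of the 10 genes are given as a description, with no test. Each gene had 1 probe set carrying that symbol alone. Levels are log2 RMA signals, a background-corrected and quantile-normalised scale on which 1 unit is a doubling, and the level of a probe set cannot be set against that of another gene.

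The study asked how transcription changes when DNA-PK, a kinase of DNA end joining whose catalytic subunit is encoded by PRKDC, is depleted in prostate cancer cells. The siDNAPK group holds 4 arrays, 1 each of C4-2B, DU145, PC3 and VCaP cells collected 48 hours after transfection with a DNAPK siRNA. The siNTC group holds 4 arrays of the same lines at the same time after a non-targeting siRNA. The labels give 1 name for the DNAPK siRNA in all 4 lines, so an effect of that reagent's sequence and an effect of losing DNA-PK cannot be told apart. C4-2B derives from LNCaP, the DU145 line from a brain metastasis, the PC3 line from one in bone, and VCaP, which has a TMPRSS2-ERG fusion, from one in a vertebra. C4-2B and PC3 were grown in RPMI medium, and DU145 and VCaP in DMEM. Each treatment was run in 1 culture of each line, so every SD below is the spread between lines. The limma errors, intervals and p-values combine that spread with a variance shared over all genes.

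Sorting nexins are proteins that bind phosphoinositides on endosomes and help to form the tubules in which membrane proteins leave them. SNX1 or SNX2 pairs with SNX5 or SNX6 in a complex called ESCPE-1, in which SNX5 and SNX6 recognise cargo such as the cation-independent mannose 6-phosphate receptor. Retromer is a trimer of VPS26 (made in an A and a B form), VPS29 and VPS35 that SNX3 and SNX27 bring to other cargo, among it the Wnt carrier Wntless and the glucose transporter GLUT1.

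PRKDC was lower with siDNAPK in every line, to differing degrees. Its siDNAPK signals were 17.4% of the siNTC signal in C4-2B cells, 25.1% in PC3 cells, 47.2% in DU145 cells and 65.0% in VCaP cells. Array medians lay between 2.94 and 2.99. Among the identity markers, ERG read 8.65 with siDNAPK and 8.57 with siNTC in VCaP and at most 3.56 elsewhere. KLK3 read 4.75 with siDNAPK and 4.46 with siNTC in VCaP, a line known to make PSA, against 10.24 and 10.12 in C4-2B, so it did not mark VCaP as a PSA-producing line here. With siDNAPK and siNTC, TMPRSS2 read 8.68 and 9.03 in VCaP and 9.46 and 9.56 in C4-2B. It read 7.17 and 6.72 in PC3, and 3.37 and 2.18 in DU145. VIM was highest in DU145 (8.15 and 8.19) and lowest in VCaP (2.47 and 2.22). The keratin genes KRT8 (3.58 and 4.0) and KRT18 (4.37 and 4.51) were also lowest in VCaP, and KRT8 was highest in PC3 (5.14 and 4.36). Of 8 markers of immune, endothelial and fibroblast cells, 5 were measured, and PTPRC, CD3E, VWF and DCN lay below the filter while COL1A1 read 3.63 to 5.06.

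SNX5 was the one gene of the 10 that was lower with siDNAPK in all 4 lines in the values as deposited. With siDNAPK, C4-2B cells read 6.58, DU145 cells 6.89, PC3 cells 6.94 and VCaP cells 7.55. With siNTC, C4-2B cells read 7.57, DU145 cells 7.36, PC3 cells 7.69 and VCaP cells 8.52. The siDNAPK array was the lower of the pair in each line, while the groups overlapped, because SNX5 was higher in VCaP with siDNAPK than in DU145 with siNTC. The siDNAPK signal was 50.3% of the siNTC signal in C4-2B cells, 51.0% in VCaP cells, 59.2% in PC3 cells and 72.3% in DU145 cells. The difference was -0.99 for C4-2B, -0.97 for VCaP, -0.76 for PC3 and -0.47 for DU145, with a mean of -0.80 ± 0.24 (SD, n = 4 lines). The line with the smallest SNX5 difference was DU145, and leaving it out gave a mean of -0.91. PRKDC had differences of -2.53 in C4-2B, -1.99 in PC3 and -1.08 in DU145, the same order as those of SNX5 in these lines. VCaP stood outside that order, with the smallest PRKDC difference (-0.62) and an SNX5 difference close to that of C4-2B.

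Counted from the lowest difference of all 16796 genes, SNX5 ranked 61 in C4-2B, 294 in PC3, 444 in VCaP and 1070 in DU145, and 28 by its mean over lines. Of all genes, 5.89% were lower in 4 of 4 lines. A limma fit over all genes, with the line as a block, called 0 of 16796 genes for the siRNA (0.0%, with 1208 genes at an unadjusted p under 0.05 and a smallest adjusted p of 0.688). PRKDC, the siRNA target, had the lowest mean difference of all genes and was not called either (limma, adjusted p = 0.688). A gene that was not called is therefore not shown to be unchanged. RNA was taken from whole cultures, so fewer cells expressing a gene and less RNA per cell cannot be told apart.

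**Figure D1:**
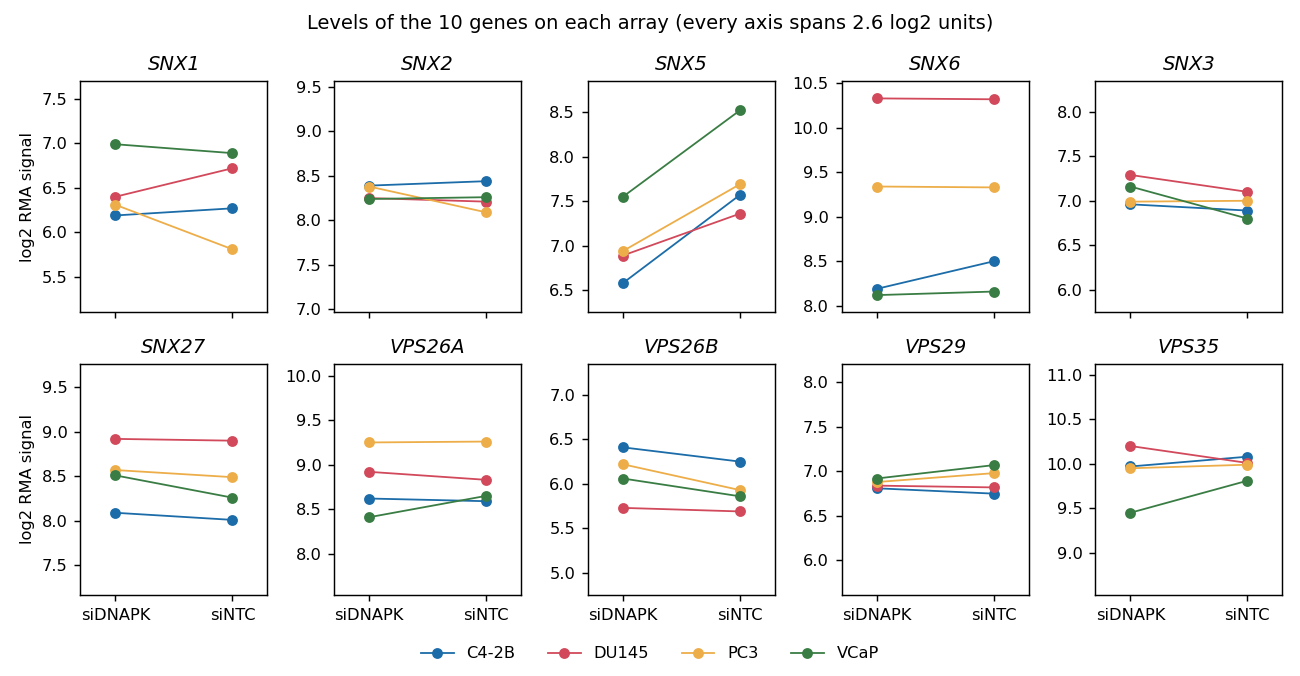
Level of each of the 10 genes (log2 RMA signal) with siDNAPK on the left and siNTC on the right, 1 point for each array and 1 line for each cell line. SNX5 is lower with siDNAPK in all 4 cell lines, while SNX6 is set apart by cell line, from 8.12 in VCaP to 10.33 in DU145 with siDNAPK.

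The promoter windows of SNX5, of its paralog SNX6 and of the cargo receptor gene IGF2R are printed because SNX5 and IGF2R were lower with siDNAPK in every line and SNX6 was not. They are RefSeq sequences of GRCh38.p14, from 250 bases before to 50 bases after the annotated start, written 5′ to 3′ on the strand of the gene. SNX5 lies at chr20:17968745-17969044 on the minus strand, SNX6 at chr14:34630099-34630398 on the minus strand and IGF2R at chr6:159968832-159969131 on the plus strand. Capitals mark the motifs searched, TGACGTCA (the cAMP response element) and CACGTG (an E-box), each the same on both strands.
SNX5: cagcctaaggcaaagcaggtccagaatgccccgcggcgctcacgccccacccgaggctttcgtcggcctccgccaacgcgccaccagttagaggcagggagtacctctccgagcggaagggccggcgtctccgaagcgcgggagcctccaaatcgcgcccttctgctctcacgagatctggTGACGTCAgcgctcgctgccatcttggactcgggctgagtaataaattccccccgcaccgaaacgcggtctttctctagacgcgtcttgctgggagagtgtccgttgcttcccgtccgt
SNX6: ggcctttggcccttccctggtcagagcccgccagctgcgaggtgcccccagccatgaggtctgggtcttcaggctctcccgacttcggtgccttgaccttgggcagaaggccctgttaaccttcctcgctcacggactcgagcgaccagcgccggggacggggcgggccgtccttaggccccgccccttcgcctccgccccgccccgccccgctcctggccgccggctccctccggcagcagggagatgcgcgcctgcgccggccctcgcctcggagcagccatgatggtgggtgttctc
IGF2R: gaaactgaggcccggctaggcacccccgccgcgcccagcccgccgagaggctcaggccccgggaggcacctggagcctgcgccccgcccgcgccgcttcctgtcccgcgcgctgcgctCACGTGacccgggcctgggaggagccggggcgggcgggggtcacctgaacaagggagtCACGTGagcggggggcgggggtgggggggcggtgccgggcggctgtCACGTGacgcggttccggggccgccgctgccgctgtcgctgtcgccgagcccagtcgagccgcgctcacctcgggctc
The SNX5 window held 1 copy of TGACGTCA, a motif found in 1.85% of 35116 promoter windows of this length, and no CACGTG. The SNX6 window held neither. IGF2R had 3 copies of CACGTG, where 7.26% of the windows held at least 1 copy and 0.094% held 3 or more. Among the 10 genes, 9 had a window in the table, 1 of them held TGACGTCA and 0 held CACGTG. VPS26A is named only. A match describes the letters of a window and not the binding of a factor.

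MGME1, a gene for a nuclease of mitochondrial DNA, starts head to head with SNX5, and the windows of the pair overlap by 277 bases. The TGACGTCA of the SNX5 window lies in that overlap, so the MGME1 window holds the same copy. A link of this motif to the differences was not tested. MGME1 read 7.42, 7.54, 7.12 and 7.87 with siDNAPK in C4-2B, DU145, PC3 and VCaP, against 7.28, 7.04, 7.19 and 8.04 with siNTC. It was higher with siDNAPK in C4-2B and DU145 and lower in PC3 and VCaP, with a mean difference of 0.10 ± 0.30 that did not pass (limma, adjusted p = 0.868). SNORD17, a small nucleolar RNA gene that RefSeq places inside SNX5, had differences of -0.65 in VCaP, -0.50 in DU145, -0.32 in PC3 and -0.04 in C4-2B, a mean of -0.38 ± 0.26 (limma, adjusted p = 0.688). It was thus below 0 in every line, with C4-2B, the line of the lowest SNX5 difference, closest to 0. OVOL2, a transcription factor gene near SNX5, had -0.21 ± 0.49 (limma, adjusted p = 0.786).

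The other ESCPE-1 genes had mean differences between -0.08 and 0.06, against -0.80 for SNX5. With siDNAPK, SNX6 read 8.12 in VCaP, 8.19 in C4-2B, 9.34 in PC3 and 10.33 in DU145 cells, and with siNTC it read 8.16, 8.50, 9.33 and 10.32 in the same lines. Its difference was -0.31 in C4-2B and between -0.04 and 0.01 in the other lines, with a mean of -0.08 ± 0.15 (SD, n = 4 lines). In DU145 and PC3 the sign turned below 0 with median centring and with cyclic loess, which put SNX6 below 0 in all 4 lines, at -0.04 and -0.01 in DU145 and PC3 with cyclic loess.

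SNX1 had its 4 differences on both sides of 0. With siDNAPK it read 6.31 in PC3 cells, 6.99 in VCaP cells, 6.19 in C4-2B cells and 6.40 in DU145 cells, against 5.81, 6.89, 6.27 and 6.72 in the same lines with siNTC. PC3 had the highest difference of any of the 10 genes in any line (0.50) and DU145 one of -0.32. The mean of 0.05 ± 0.35 was -0.10 without PC3. SNX2, the alternative partner, read 8.24 to 8.39 with siDNAPK and 8.09 to 8.44 with siNTC, with differences of 0.29 in PC3, 0.04 in DU145, -0.03 in VCaP and -0.05 in C4-2B. Its mean was 0.06 ± 0.15, and -0.01 without PC3, and with cyclic loess the DU145 value was -0.01.

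The adaptor SNX27, which links retromer to cargo with a PDZ-binding tail, was slightly higher with siDNAPK in every line. With siDNAPK it read 8.51 in VCaP cells, 8.57 in PC3 cells, 8.09 in C4-2B cells and 8.92 in DU145 cells, against 8.26, 8.49, 8.01 and 8.90 in the same lines with siNTC. The differences ran from 0.02 in DU145 to 0.26 in VCaP, with a mean of 0.11 ± 0.10, and the DU145 value turned to -0.01 with median centring and to -0.03 with cyclic loess. SNX3, the adaptor for Wntless, read 6.96 to 7.29 with siDNAPK and 6.80 to 7.10 with siNTC. It was higher in C4-2B (0.08), DU145 (0.19) and VCaP (0.36) and stood at -0.01 in PC3, with a mean of 0.16 ± 0.16.

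Of the retromer trimer, VPS26B was the subunit gene with the same sign in all 4 lines. With siDNAPK it read 6.22 in PC3 cells, 6.06 in VCaP cells, 6.41 in C4-2B cells and 5.73 in DU145 cells, against 5.93, 5.86, 6.25 and 5.69 in the same lines with siNTC. Its differences in that order of lines were 0.29, 0.21, 0.15 and 0.04, a mean of 0.17 ± 0.10, and the DU145 value became -0.01 with cyclic loess. The form encoded by VPS26A had differences of 0.03, 0.09, -0.02 and -0.24 in C4-2B, DU145, PC3 and VCaP, a mean of -0.03 ± 0.14. VPS35, the scaffold that binds the other subunits, read 9.45 to 10.20 with siDNAPK and 9.81 to 10.08 with siNTC. Its lowest difference was that in VCaP (-0.36) and its highest that in DU145 (0.19), with a mean of -0.08 ± 0.22. VPS29 had differences from -0.15 in VCaP to 0.06 in C4-2B, with a mean of -0.04 ± 0.10.

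**Figure D2:**
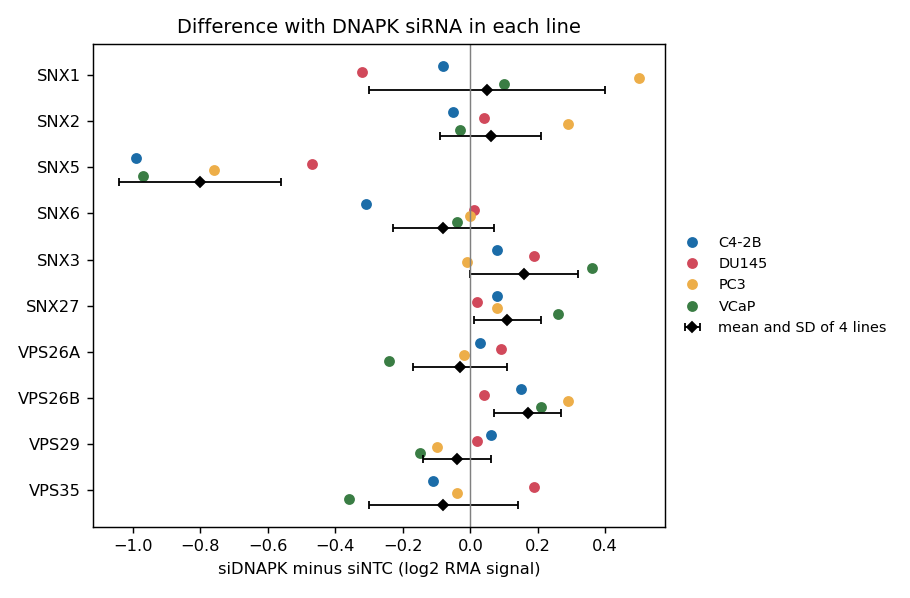
Difference between siDNAPK and siNTC (log2 RMA signal, horizontal axis) for each of the 10 genes, with 1 point for each line and a black diamond and bar for the mean and SD of 4 lines. SNX5 has all 4 points below -0.4, and the other genes have means between -0.08 and 0.17.

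In counts, 1 of the 10 genes (SNX5) was lower with siDNAPK in all 4 lines, where 5.89% of all genes were, and 2 (SNX27 and VPS26B) were higher in all 4 lines, where 11.5% of all genes were. In C4-2B 1 gene lay below -0.5 (background 3.76%) and 0 above 0.5 (4.51%). DU145 had 0 below -0.5 (5.55%) and 0 above 0.5 (5.89%). PC3 had 1 below -0.5 (5.22%) and 1, SNX1, just above 0.5 (6.08%). VCaP had 1 below -0.5 (12.8%) and 0 above 0.5 (10.5%). The gene below -0.5 was SNX5 each time, and since the response of SNX5 was used in choosing the set, nothing is read from these shares. The median of the mean differences was 0.01 over the 10 genes and 0.05 over the 9 without SNX5, against 0.03 over all genes.

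Differences in level between lines are not the siRNA contrast and were tested, though their error is not independent of it. Each line mean averages the siDNAPK and the siNTC array of that line, with no replicate cultures. The error is the gene's spread of the siRNA response between lines, drawn by limma toward a variance shared over all genes. For SNX5 that error comes in part from the same differences that were used in choosing the set. The largest line differences belonged to SNX6. DU145 had a line mean of 10.33, PC3 one of 9.34, C4-2B one of 8.35 and VCaP one of 8.14, a span of 2.19 or 4.56-fold, wider than that of 86.7% of genes. VCaP lay below DU145 by a difference of -2.19 ± 0.16 (SE; limma, adjusted p = 4.48e-05), C4-2B below DU145 by -1.98 (adjusted p = 8.62e-05) and PC3 below DU145 by -0.99 (limma, adjusted p = 0.00347). C4-2B and VCaP were also below PC3, by -0.99 and -1.20 (limma, adjusted p = 0.0026 and 0.000849). The neighbours C4-2B and VCaP differed by 0.21 (95% interval -0.17 to 0.59; limma, adjusted p = 0.361).

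SNX5 had another order. VCaP had a line mean of 8.03, PC3 one of 7.31, DU145 one of 7.13 and C4-2B one of 7.08, a 1.94-fold span that exceeded the span of 52.8% of genes. VCaP was above DU145 by 0.91 ± 0.18 (SE; limma, adjusted p = 0.00586), above PC3 by 0.72 (adjusted p = 0.016), and C4-2B was below VCaP by -0.96 (limma, adjusted p = 0.00583). PC3, DU145 and C4-2B did not differ beyond the error, with adjusted p of 0.365 to 0.871 (limma) and a C4-2B minus DU145 interval of -0.48 to 0.38. Thus VCaP had the highest SNX5 line mean and the lowest SNX6 line mean of the 4 lines, each gene read against itself.

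SNX1 was also highest in VCaP, at 6.94, with DU145 at 6.56, C4-2B at 6.23 and PC3 at 6.06. VCaP lay above PC3 by 0.88 (limma, adjusted p = 0.0131), and C4-2B lay below VCaP by -0.71 (limma, adjusted p = 0.0366). DU145 did not differ from any neighbour in that order beyond the error. SNX2 had line means of 8.41 in C4-2B, 8.25 in VCaP and 8.23 in both DU145 and PC3, a span of 0.19, and 2.56% of genes had a smaller span, while 0 of its 6 contrasts passed.

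Among the adaptors, SNX27 had its highest line mean in DU145 (8.91), ahead of PC3 (8.53), VCaP (8.38) and C4-2B (8.05). C4-2B was below DU145 by -0.87 (limma, adjusted p = 0.00394), VCaP was below DU145 by -0.53 (adjusted p = 0.0283) and C4-2B was below PC3 by -0.48 (adjusted p = 0.0454). The C4-2B with PC3 contrast missed the threshold without the expression filter (limma, adjusted p = 0.0561) and without DU145 (0.067), and the VCaP with DU145 contrast missed it without C4-2B (0.0591) and without PC3 (0.0507). SNX3 spanned 6.92 in C4-2B to 7.20 in DU145, with 0 of 6 contrasts called.

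The paralogous retromer subunits were highest in different lines. VPS26A had its highest line mean in PC3 (9.26), ahead of DU145 (8.87), C4-2B (8.61) and VCaP (8.53). It was lower in C4-2B than in PC3 by -0.65 (limma, adjusted p = 0.0163) and lower in VCaP than in PC3 by -0.73 (limma, adjusted p = 0.00883). VPS26B was highest in C4-2B (6.33), ahead of PC3 (6.08), VCaP (5.96) and DU145 (5.71), and the ends of that order differed by 0.61 (C4-2B minus DU145; limma, adjusted p = 0.0183). VPS29 spanned 6.78 in C4-2B to 6.99 in VCaP, and 3.93% of genes had a smaller span. VPS35 spanned 9.63 in VCaP to 10.11 in DU145, and its VCaP minus DU145 difference of -0.48 did not pass (limma, adjusted p = 0.0667), though it did with cyclic loess (0.0359). With an intensity trend in the limma fit it passed too (0.0182), as did its C4-2B minus VCaP difference of 0.40 (0.0459, against 0.127 without the trend). Neither VPS29 nor VPS35 had a called contrast among its 6 without these alternatives.

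Over the 10 genes, 3 were called for C4-2B minus DU145, where 34.5% of all genes were, and 3 for C4-2B minus PC3 (36.2%). For C4-2B minus VCaP 2 were called (34.7%), for PC3 minus DU145 1 (30.5%), for VCaP minus DU145 3 (41.7%) and for VCaP minus PC3 4 (41.1%). With so few genes, nothing is read from how these counts stand to the shares of all genes. Contrasts between a line in RPMI (C4-2B, PC3) and one in DMEM (DU145, VCaP) differ in medium as well as in line, which cannot be told apart.

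**Figure D3:**
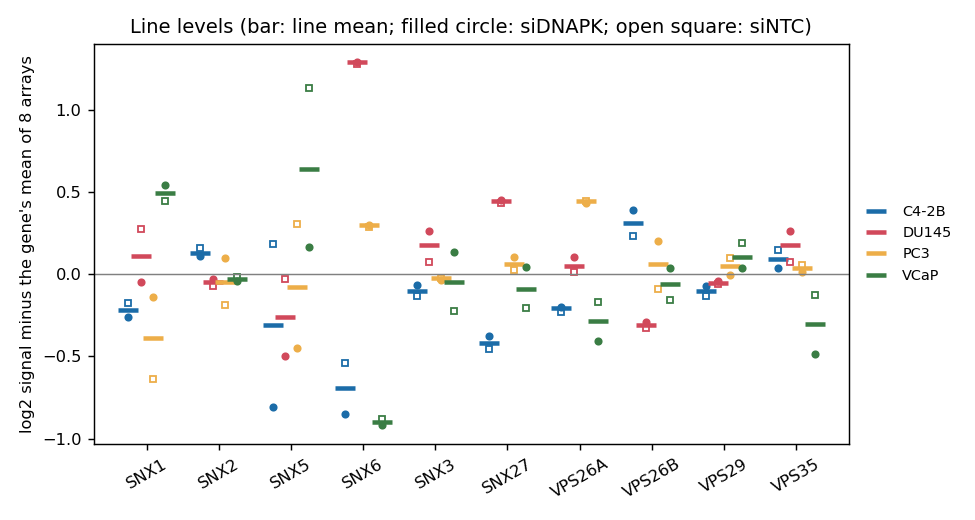
Level of each of the 10 genes in each line, as log2 signal minus that gene's mean of 8 arrays, with filled circles for siDNAPK, open squares for siNTC and a bar for the line mean. SNX6 spreads most between lines, with DU145 at the top and VCaP at the bottom, and SNX2 and VPS29 spread least.

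Other genes of endosomal sorting were read from lists that hold none of the 10 genes, and 0 of their members passed in the siRNA contrast (limma). Endosomal cargo leaned below 0, with a median mean difference of -0.19 over 14 measured genes of 16 listed, 4 above 0 and 10 below, against 0.03 over all genes. Of these, 6 were lower with siDNAPK in all 4 lines (IGF2R, SORL1, ATP7B, TGOLN2, ITGB1 and LRP1) and 1, M6PR, was higher. Of all genes, 5.89% were lower and 11.5% higher in 4 of 4 lines. By mean difference, 9469 of all 16796 genes lay above 0 and 7327 below. The cargo list was chosen with earlier results of these data known.

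IGF2R, the cation-independent mannose 6-phosphate receptor that ESCPE-1 recognises, read 7.36 in DU145 cells, 7.18 in PC3 cells, 6.61 in VCaP cells and 7.53 in C4-2B cells with siDNAPK. With siNTC it read 8.0 in DU145 cells, 7.69 in PC3 cells, 7.11 in VCaP cells and 7.91 in C4-2B cells. The siDNAPK array was the lower in each line and the groups overlapped. The differences in that order were -0.64, -0.52, -0.51 and -0.37. Their mean of -0.51 ± 0.11 leaves 70.3% of the siNTC signal (limma, adjusted p = 0.688). The limma 95% interval of -0.77 to -0.25 is not adjusted for the number of genes. IGF2R is also 1 of the 2 genes with the largest mean differences of its list. M6PR, the cation-dependent receptor for the same sugar tag, had 0.22 ± 0.16 (limma, adjusted p = 0.693).

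SORL1, a sorting receptor, had -0.24 ± 0.22, with -0.55 in C4-2B (limma, adjusted p = 0.693). The integrin gene ITGB1 had -0.31 ± 0.22, the copper pump gene ATP7B -0.23 ± 0.14, the endocytic receptor gene LRP1 -0.21 ± 0.11 and TGOLN2, which encodes a protein of the trans-Golgi network, -0.17 ± 0.12 (limma, adjusted p of 0.688 to 0.737). WLS, which encodes Wntless, had 0.77 in C4-2B, -0.09 in VCaP, -0.31 in DU145 and a value of 0.00 in PC3, a mean of 0.09 ± 0.47 (limma, adjusted p = 0.906). SLC2A1, which encodes GLUT1, had 1.15 in VCaP and -0.14 to 0.09 elsewhere (mean 0.26 ± 0.60; limma, adjusted p = 0.774). The glutamine carrier gene SLC1A5 had -1.84 in VCaP and -0.40 to 0.04 elsewhere (mean -0.57 ± 0.87; limma, adjusted p = 0.693). For these last 2 cargo genes the mean therefore lay mostly with VCaP, the line with the widest spread of differences over all genes (SD 0.46, against 0.29 in C4-2B).

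**Figure D4:**
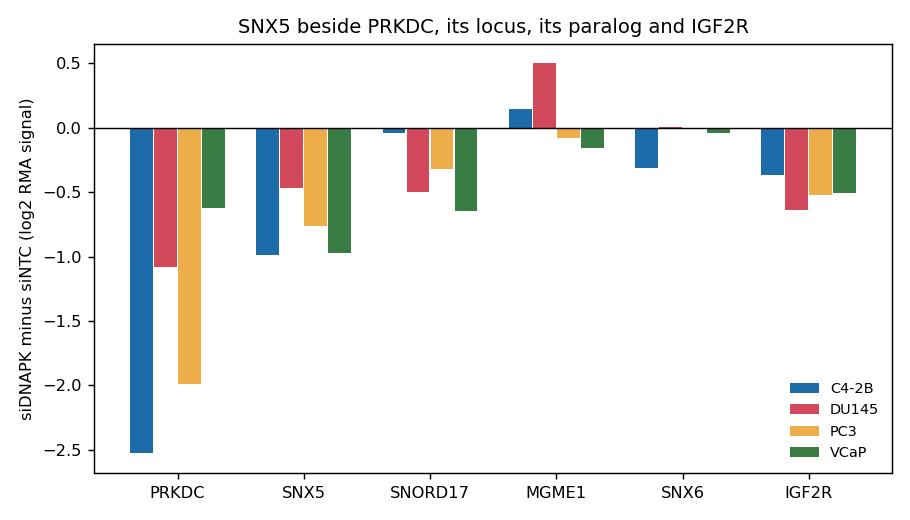
Difference between siDNAPK and siNTC (log2 RMA signal) in each of 4 lines for PRKDC, SNX5, the SNX5 neighbours SNORD17 and MGME1, the paralog SNX6 and the cargo receptor gene IGF2R. PRKDC, SNX5, SNORD17 and IGF2R lie below 0 in all 4 lines, MGME1 lies on both sides of 0 and SNX6 departs from 0 mainly in C4-2B.

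The other sorting nexins had a median of -0.02 over the 19 genes above the filter, 9 above 0 and 10 below, against 0.03 over all genes. Of the 19, 4 were higher with siDNAPK in all 4 lines and 2 were lower, where 11.5% and 5.89% of all genes were. The 2 named here by the size of their mean difference both had negative means. SNX30, a nexin of autophagy that pairs with SNX4, was lower in 4 lines at -0.01, -0.47, -0.43 and -0.89 in C4-2B, DU145, PC3 and VCaP (mean -0.45 ± 0.36; limma, adjusted p = 0.688). SNX16, a nexin of early and late endosomes, had -1.12 in VCaP and -0.28 to 0.04 elsewhere (mean -0.40 ± 0.50; limma, adjusted p = 0.688).

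Retriever and its CCC partner complex, which recycle cargo in parallel with retromer, had a median of 0.14 over 12 genes, 10 above 0 and 2 below. Over all 16796 genes the median was 0.03, with 9469 above 0 and 7327 below. The CCC genes COMMD8 and COMMD4 had 0.39 ± 0.31 and 0.34 ± 0.37 (limma, both adjusted p = 0.688). Regulators of retromer had a median of 0.09 over 8 genes, with RAB32 at 0.52 ± 0.77, of which VCaP gave 1.66, and the related GTPase gene RAB38 at 0.19 ± 0.22 (limma, adjusted p = 0.692 and 0.737). The WASH complex, which builds actin on endosomes, had 3 measured genes of 6 listed, WASHC3 among them, with WASHC4 at 0.11 ± 0.23 and WASHC5 at -0.10 ± 0.18 (limma, adjusted p = 0.837 and 0.848).

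The genes whose levels ran most like SNX5 over the 8 arrays were FBLL1 (Pearson r = 0.962), AATK (0.957), TPT1 (0.939), SLC1A4 (0.938) and TMEM62 (0.935). These are descriptions over arrays that share lines, in which SNX5 differed between lines as well as between siRNAs. All 5 were lower with siDNAPK in 4 lines, by a mean of -0.26 (TPT1) to -0.62 (TMEM62), and FBLL1 and AATK read at most 4.39 and 4.68 on any array. That they were lower is largely given by the choice, which used their likeness to SNX5 on these same arrays. By the distance between the 4 line differences, the nearest were SESTD1, FN1, ENPP4, BLTP3A and ZXDA, at 0.40 to 0.47 log2 units. Among the 10 genes, VPS29 had the highest r with SNX5 (0.71), followed by SNX1 (0.39), and the other genes lay between -0.52 and -0.19. By distance the nearest of them was VPS35, at 1.45. The r of VPS29 rests on a narrow range, 6.75 to 7.07 over the 8 arrays, and its siRNA differences lay on both sides of 0.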

How the data were processed

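RNA (400 ng) was hybridised to Affymetrix whole-transcript arrays. The deposited values are log2 signals, made by the authors with oligo and RMA per the submitters' processing notes, with no version. RMA makes array distributions alike, so differences are relative to most transcripts. The number of arrays limits the precision. Of 53617 probe sets, 23871 carried 1 symbol and entered, and the one with the highest mean over 8 arrays stood for its gene. Symbols were updated through Entrez identifiers for 22569 of them, with the RefSeq table of GRCh38.p14. No source used here gives the build of the array.

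A filter removed the lowest 25 percent of gene means (up to 2.51). Limma 3.58.1 (R 4.3.3) fitted line and siRNA together, 2-sided, with Benjamini-Hochberg adjustment over 16796 genes, a threshold of 0.05 and 3 residual degrees of freedom (7.55 with the prior). The line pairs the arrays by design. Array correlations ran from 0.974 to 0.990 inside lines, and reached 0.892 across them. The fitting code was also run on simulated data in which far fewer genes differed between lines than here, and no result is drawn from that run. Alternatives were no filter, median centring, cyclic loess, the mean of probe sets, an intensity trend, no line block and leaving out each line.

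The 10 genes and all lists were chosen with earlier results of these data known. By rule, the text also names PRKDC, IGF2R, SORL1, WLS, SLC2A1, neighbours of SNX5, the 2 largest mean differences of each list and the 5 genes most like SNX5 by each of 2 measures. ATP7B, TGOLN2, ITGB1, LRP1, M6PR and WASHC3 were named after their values were seen.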

Additional observations from a re-analysis of the deposited data

Results flagged for a closer look

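In 81 sets of 4 values over 27 genes, 4 had a lowest or highest value farther from the others than Dixon's 95% limit, and chance gives about 1 in 20. SNX6 had a difference of -0.31 in C4-2B, below those of the other lines. SNX16 read 5.02 in VCaP with siDNAPK, below the other siDNAPK arrays. RAB38 read 6.09 with siDNAPK and 6.21 with siNTC in DU145, apart from the other lines under both siRNAs.

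C4-2B and VCaP had differences below 0, and DU145 and PC3 above 0, for SNX2 and for SNX6. The mean difference of C4-2B and VCaP minus that of DU145 and PC3 was -0.20 for SNX2 and -0.18 for SNX6. The split by sign was lost under other scalings. With cyclic loess SNX2 had -0.01 in DU145, and SNX6 had -0.04 in DU145 and -0.01 in PC3, and with median centring SNX6 had -0.02 in DU145 and -0.01 in PC3. Neither difference between the pairs of lines was tested.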

How the results depend on the processing

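Of 214 values recomputed under the alternatives, 200 were classed as the same and 14 as moved. A mean was classed as the same if it changed by less than its SD over lines. A count or share was so classed if its ratio to the main value stayed within a set limit. Direction and side of the threshold were not part of this rule. For example, the SNX1 mean was classed as the same though it went from 0.05 to -0.10 without PC3. The count of the 10 genes lower in every line was 1 (SNX5) and became 2 with median centring and with cyclic loess, as SNX6 joined it, and 1 to 2 when each line was left out (2 without DU145, with VPS35). The count higher in every line was 2 and became 1 with median centring and 0 with cyclic loess, and 2 to 3 when each line was left out (3 without PC3, with SNX3). The mean SNX5 difference was -0.91 to -0.73 when each line was left out, -0.81 with median centring and -0.83 with cyclic loess. These scalings left the median of all genes at 0.013 and 0.009, against 0.027 as deposited. With an intensity trend, the genes called for PC3 minus DU145 numbered 3 instead of 1 (SNX27 and VPS26A added) and those for VCaP minus DU145 numbered 5 instead of 3 (VPS26A and VPS35 added), and those for C4-2B minus VCaP numbered 3 instead of 2 (VPS35 added). The VCaP minus DU145 contrast gave 2 without C4-2B and 2 without PC3. With fewer lines counted, 10.5% to 12% of all genes were lower in every remaining line. Without the line block, 0 genes were called for the siRNA, as with it. None of the line contrasts of the 10 genes that were called changed sign under the alternatives run. The cause of the other moves was not tested. Detection calls and scan batches were not analysed here, so what signal over background limits is unknown.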
